A study of Mus musculus with 7 samples.

Results

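The regulatory sites described here come from 4 stretches of the mouse genome that the study's library covered around genes of the T cell receptor's signalling machinery. These are a Cd3 window holding Cd3e, Cd3d and Cd3g (chr9:44740000-44860000), a Cd247 window (chr1:167680000-167830000), a Lck window (chr4:129200000-129280000) and a Zap70 window (chr1:36790000-36860000), all in build mm9. The windows were cut into bins of 500 bp, each read was placed by the middle of its fragment, and a bin was kept when it held at least 50 plasmid reads in each of 3 input libraries. That left 19 bins of 29994 kept across the genome: 2 in the Cd3 window, 8 in the Cd247 window, 8 in the Lck window and 1 in the Zap70 window. Bins are numbered from the low to the high end of each window, so Lck-1 is the first kept bin of the Lck window.

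The measurements are a capture reporter assay in which DNase hypersensitive sites of the mouse T cell line P5424 were cloned behind a promoter and their own transcripts were counted. The tested libraries were reporter RNA from plasmids with the promoter labelled pR-Ea, with pPGK (the phosphoglycerate kinase promoter) in a library labelled pPGK_PMA_I, with pPGK, and with SCP1 (super core promoter 1, a synthetic core promoter), and each promoter had a plasmid input. All 7 samples were P5424 cells, each group held 1 library, and the treatment field lists PMA/Ionomycin for each of them (with PMA/I added for pPGK_PMA_I and for the pPGK input), so that library's title is what tells the stimulus apart. With 1 library per group no value has a replicate check, no p-value is given, and each difference is one between these libraries. The files hold no expression values, so the identity of the cells was not checked against markers.

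The T cell receptor has no signalling domain of its own. It depends on the CD3 chains: epsilon and delta or gamma pair beside the receptor, and the zeta chain, encoded by Cd247, contributes most of the tyrosine motifs that become phosphorylated. Lck is the Src family kinase that phosphorylates those motifs, and Zap70 is the kinase that docks on them and passes the signal on. PMA, a phorbol ester, activates protein kinase C and ionomycin raises intracellular calcium, so the pair acts below these proteins and bypasses them.

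The windows are wider than the genes that name them. In the RefSeq annotation of GRCm38.p6, which is another build than that of the files, Cd3g, Cd3d and Cd3e follow each other between Ube4a and Mpzl2. There Cd247 lies between Creg1 and Pou2f1, Lck between Hdac1 and Fam167b, and Zap70 between 4933424G06Rik and Tmem131. No bin was therefore tied to a promoter, an intron or a neighbouring gene, and the bins' own sequence was not read because no mm9 genome was used. As the regulatory sequence at hand for these genes, the 250 bases before the RefSeq start are shown for Cd3e, for the 2 starts of Lck, for the first start of Zap70 and for Cd247, each on the gene's strand and in GRCm38.p6. They lie at chr9:45009612-45009861 (minus strand), chr4:129573642-129573891 and chr4:129558373-129558622 (both minus), chr1:36761548-36761797 (plus) and chr1:165788431-165788680 (plus). GGAA on either strand, the core of sites bound by ETS factors, is in capitals.
Cd3e: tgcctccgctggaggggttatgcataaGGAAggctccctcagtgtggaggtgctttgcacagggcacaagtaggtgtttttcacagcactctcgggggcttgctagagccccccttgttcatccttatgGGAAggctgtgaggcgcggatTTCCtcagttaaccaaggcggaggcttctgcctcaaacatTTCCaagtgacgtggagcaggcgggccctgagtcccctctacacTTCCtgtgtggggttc
Lck first: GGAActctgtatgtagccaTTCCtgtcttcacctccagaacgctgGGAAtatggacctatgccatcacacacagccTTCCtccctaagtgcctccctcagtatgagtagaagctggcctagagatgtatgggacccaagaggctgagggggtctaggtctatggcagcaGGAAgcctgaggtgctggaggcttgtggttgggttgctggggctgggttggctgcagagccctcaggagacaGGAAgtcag
Lck second: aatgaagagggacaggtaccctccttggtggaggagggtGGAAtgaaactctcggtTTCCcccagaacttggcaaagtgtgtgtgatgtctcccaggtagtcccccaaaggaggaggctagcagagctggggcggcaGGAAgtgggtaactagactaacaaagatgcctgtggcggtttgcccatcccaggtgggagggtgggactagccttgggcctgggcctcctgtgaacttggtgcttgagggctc
Zap70: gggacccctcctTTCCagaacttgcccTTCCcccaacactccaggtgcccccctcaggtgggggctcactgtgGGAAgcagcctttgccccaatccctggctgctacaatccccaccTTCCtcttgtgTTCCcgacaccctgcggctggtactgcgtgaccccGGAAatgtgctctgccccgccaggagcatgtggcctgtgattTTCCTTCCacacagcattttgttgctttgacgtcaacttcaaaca
Cd247: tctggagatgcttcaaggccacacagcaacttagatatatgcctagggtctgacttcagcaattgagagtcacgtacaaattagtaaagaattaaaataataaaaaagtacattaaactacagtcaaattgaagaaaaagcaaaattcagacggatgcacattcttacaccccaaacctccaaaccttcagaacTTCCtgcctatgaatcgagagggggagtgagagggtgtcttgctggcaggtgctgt

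These upstream stretches differ in how often they hold the ETS core, with 8 matches for Zap70, 6 and 3 for the first and second Lck start, 5 for Cd3e and 1 for Cd247. Of the 9 RefSeq entries for the 6 genes, 8 held at least 1 match, against 93.4% of 32851 mouse entries of the same length. The RUNX sequence TGTGGT on either strand was in 2 of the 9, at the first Lck start and at a second Zap70 start, against 14% of all entries. TGANTCA, the sequence bound by AP-1, was in 0 of 9, against 6.75% of all. The series title concerns short tandem repeats, and a run of 6 CA units on either strand was in 0 of 9, against 0.883% of all. These are matches of letters in a reference window and not measurements of the reporter.

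The plasmid input was concentrated in a few peaks in each window, which set where bins could be kept. Of 448 bins with any read in the windows, 19 reached the minimum in all 3 inputs, 11 in 2 inputs, 30 in 1 and 388 in none. The kept bins held 84.7% to 86.3% of the input reads of the Lck window but 10.8% to 16.1% of those of the Zap70 window, where 4 further bins missed the minimum in 1 input. Closest to the limit, Cd247-2 had 55 reads in its lowest input and Zap70-1 had 57, while chr1:36803001-36803500 in the Zap70 window and chr9:44780501-44781000 in the Cd3 window were left out with 45. Reporter libraries had 25359000 to 33550121 reads in all kept bins and inputs 10227539 to 26406100. The median bin of these loci held 522, 564, 409 and 738 reporter reads with pR-Ea, pPGK_PMA_I, pPGK and SCP1, against 165, 199 and 617 reads in the pR-Ea, pPGK and SCP1 inputs.

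**Figure D1:**
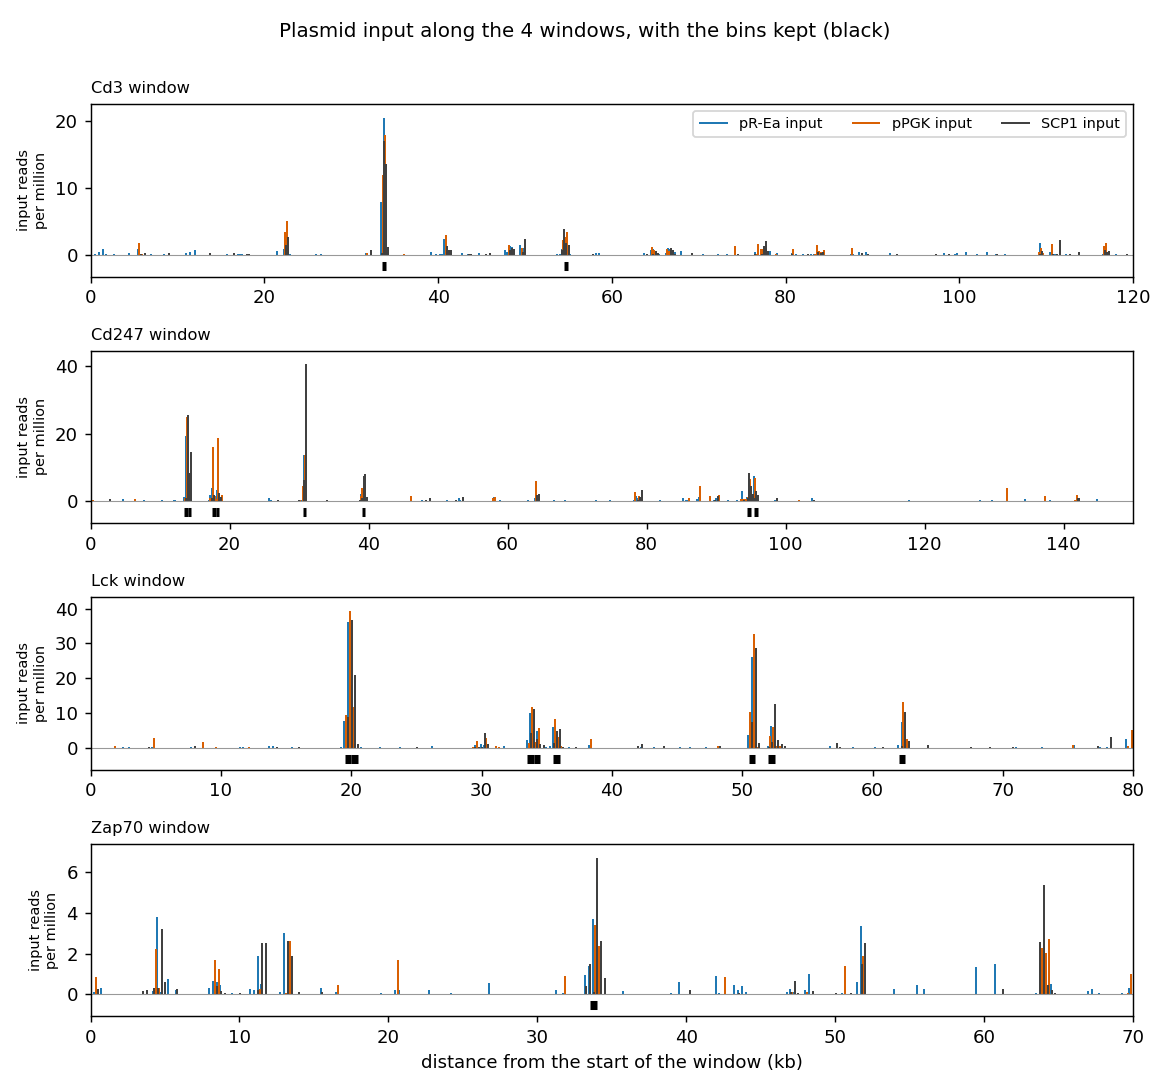
Input RPM (reads scaled to the library's reads used), in steps of 250 bp along each window, for the pR-Ea, pPGK and SCP1 inputs (lines drawn side by side with a small offset), against distance from the window's start in kb; black marks are the 19 kept bins. The Lck window has 8 kept bins and the Zap70 window 1.

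Activity is given as the log2 ratio of reporter to input reads after both were scaled to their totals over all kept bins, so 0 is the average plasmid read and no neutral insert sets a baseline. A bin was called higher or lower when that ratio was at least 1 in size (2-fold) and an exact 95% interval of the counts excluded equality. The interval covers counting error only, and PCR copies make it too narrow. A standard error over distinct fragment positions (SE) is therefore given with many of the ratios, and it does not cover variation between cultures. Ratios by strand, under alternatives and of some uncalled bins are given without it.

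Most bins of these loci lay near the average of the library. Called with none of the 3 promoters were 13 of 19 bins, against 73% of all bins, and 0 of 19 were called higher, and 0 lower, with all 3 promoters, against 0.0267% and 3.61% of all bins. With pR-Ea 1 bin was called lower and 0 higher, against 7.98% and 0.823% of all bins (8.81% either way). In pPGK_PMA_I 2 were lower and 2 higher, against 9.25% and 7.55% (16.8% either way). With pPGK 3 were lower and 1 higher, against 9.45% and 3.85% (13.3% either way). With SCP1 3 were lower and 0 higher, against 14.3% and 3.71% (18% either way). The median log2 ratio over the 19 bins was 0.10 with pR-Ea, 0.22 in pPGK_PMA_I, -0.03 with pPGK and -0.29 with SCP1, beside medians over all bins of -0.02, 0.07, 0.07 and -0.15. These counts and medians are close to the background, so what follows describes single bins. Counting distinct positions in place of reads left 0 of the 19 bins called in any comparison. The share called of the bins tested at that setting was also small. It was at most 4.37% for a reporter over its input, 0.145% for pPGK_PMA_I over pPGK and at most 5.62% between promoters. Outside the promoter comparisons, a bin with under 50 positions in both counts together could not be called at that setting. This applied to Lck-5 and Lck-3 with pPGK (24 and 15, and 26 and 17 reporter and input positions). It also applied to Lck-4 with SCP1 (21 and 28) and to Zap70-1 in pPGK_PMA_I over pPGK (12 and 10). The loss of those calls was therefore fixed in advance.

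**Figure D2:**
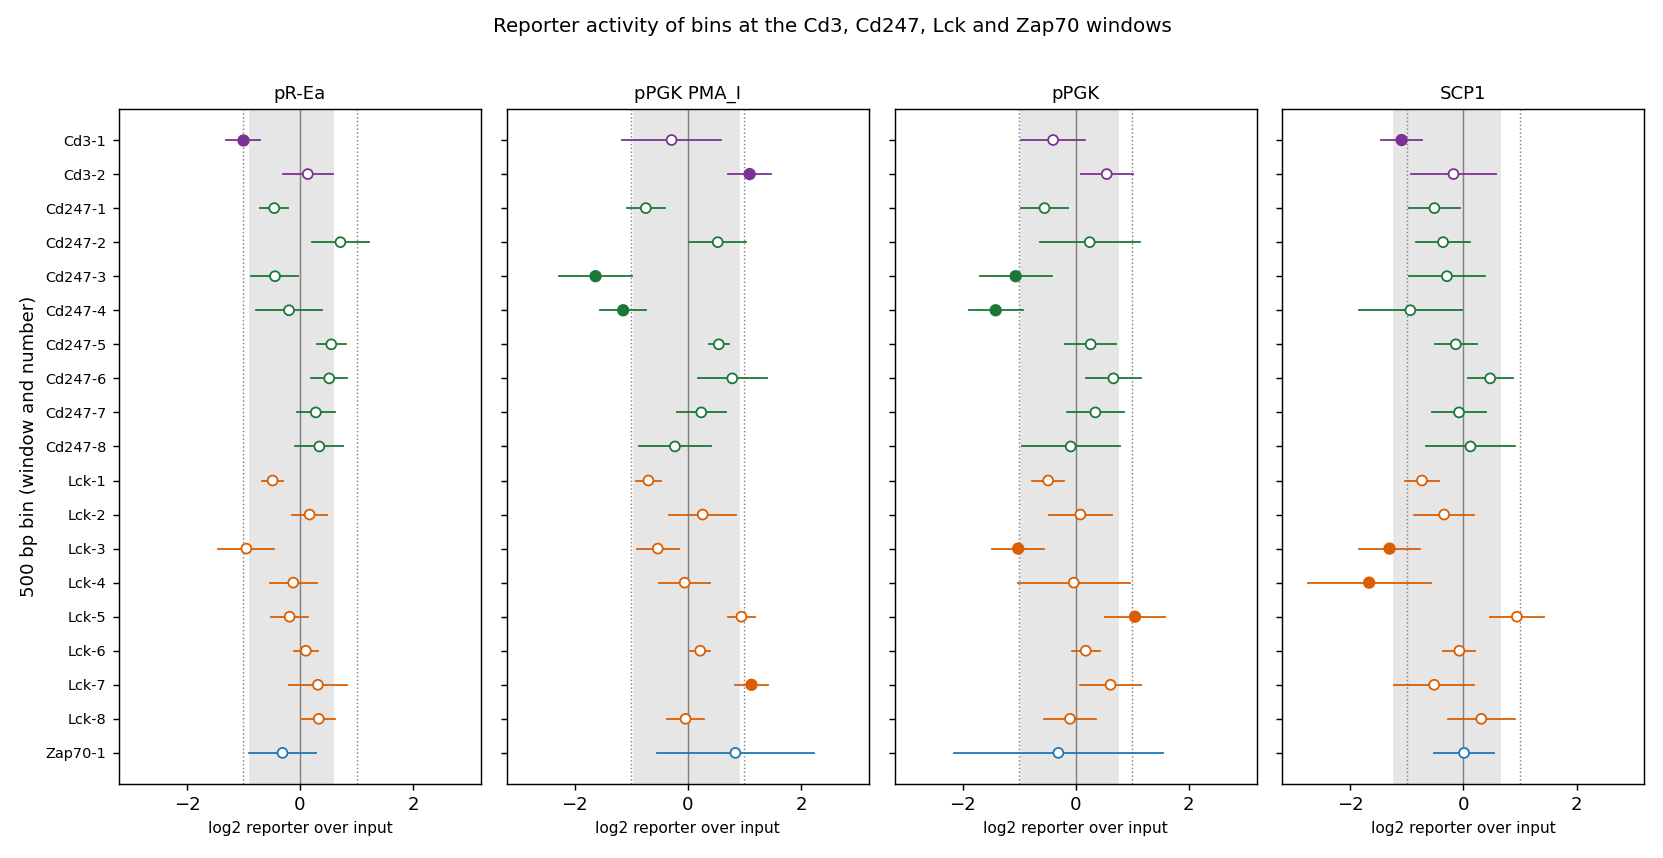
Log2 ratio of reporter to input reads (x axis) for each of the 19 bins (rows) in the pR-Ea, pPGK_PMA_I, pPGK and SCP1 libraries; bars are 95% intervals over positions, filled points were called, the gray band holds the middle 80% of all bins and dotted lines mark a log2 ratio of -1 and 1. Cd3-1 is low with pR-Ea and SCP1, and Lck-5 is high with pPGK and SCP1 but not with pR-Ea.

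The Cd3 window had a bin called lower with pR-Ea and SCP1 and another called higher in pPGK_PMA_I alone. Cd3-1 (chr9:44773501-44774000) held 691 reporter and 511 input reads with pR-Ea, 1070 and 915 reporter reads in pPGK_PMA_I and pPGK over 500 in their shared input, and 787 over 1323 with SCP1. Its log2 ratio was -1.01 (SE 0.15) with pR-Ea, -0.29 (SE 0.45) in pPGK_PMA_I, -0.40 (SE 0.29) with pPGK and -1.09 (SE 0.18) with SCP1. The bin was thus called lower with pR-Ea and SCP1, at percentiles 7.88 and 12.4 of all bins, and both ratios sat at the 2-fold limit. Setting the median ratio of all bins to 0 took both below it, to -0.99 and -0.94, and counting every listed line gave -0.98 with SCP1. Both strands were below input, with plus and minus strand ratios of -1.13 and -1.06 with pR-Ea and -1.14 and -1.09 with SCP1.

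Cd3-2 (chr9:44794501-44795000) was a smaller site, with 189 over 63 reads with pR-Ea, 570 and 361 over 102 in pPGK_PMA_I and pPGK, and 155 over 138 with SCP1. The log2 ratios were 0.14 (SE 0.23), 1.09 (SE 0.19), 0.55 (SE 0.23) and -0.18 (SE 0.39) in that order. It was called higher in pPGK_PMA_I alone, at percentile 94.3 of all bins. The call was lost with the score limit asked of each file alone, at 0.95, and, at 0.89, without the position that held most reads in each library, which carried 43.2% of the bin's pPGK_PMA_I reads.

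In the Cd247 window, 6 of the 8 bins were called with no promoter, and a pair of adjoining bins was low with pPGK. Cd247-3 (chr1:167697501-167698000) held 162 over 81 reads with pR-Ea, 251 and 345 over 299 in pPGK_PMA_I and pPGK, and 90 over 87 with SCP1. Its log2 ratios were -0.44 (SE 0.21), -1.63 (SE 0.33), -1.06 (SE 0.32) and -0.29 (SE 0.34). Cd247-4 (chr1:167698001-167698500) held 157 over 66, 387 and 296 over 328, and 71 over 108 reads. Its log2 ratios were -0.19 (SE 0.29), -1.14 (SE 0.21), -1.41 (SE 0.24) and -0.94 (SE 0.47). Both bins were called lower in the 2 pPGK libraries, and in neither the pR-Ea nor the SCP1 library. With the score limit asked of each file alone, the pPGK_PMA_I ratio of Cd247-4 was -0.87 and its call was lost.

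Read mapping stood apart in these 2 bins. Positions left out because a file listed them with a mapping quality score under 30 held 61.8% and 77.3% of the pPGK reporter reads and 75.0% and 81.2% of the pPGK input reads of Cd247-3 and Cd247-4. The other reporter libraries also lost many reads, 51.6% and 38.9% with pR-Ea, 43.3% and 33.0% in pPGK_PMA_I, and 54.5% and 59.9% with SCP1. The share was 50.6% and 34.7% in the pR-Ea input and 54.7% and 58.3% in the SCP1 input. In the other 17 bins that share was at most 17.3% in any library. The strands of Cd247-3 also disagreed: with pPGK the log2 ratio was 0.91 on the plus strand, from 121 over 26 reads, and -1.57 on the minus strand, from 208 over 251. In pPGK_PMA_I the plus strand gave 0.37 and the minus strand -2.21. Cd247-4 had 0 pPGK reads on its plus strand in the reporter and in the input. With no score limit, Cd247-3 and Cd247-4 had log2 ratios of -1.52 and -1.53 with pPGK. In pPGK_PMA_I these were -2.16 and -2.32. With the limit asked of each file alone they were -1.10 and -1.36 with pPGK, and -1.19 and -0.87 in pPGK_PMA_I. By distinct positions they were short of 2-fold, at -0.73 and -0.10 with pPGK and -0.38 and -0.27 in pPGK_PMA_I. The part of mapping in the low ratios was not tested.

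No other Cd247 bin was called. The adjoining pair at the low end of the window differed: Cd247-1 (chr1:167693501-167694000) had log2 ratios of -0.45, -0.74, -0.55 and -0.51 with pR-Ea, pPGK_PMA_I, pPGK and SCP1, below input in every library. Cd247-2 (chr1:167694001-167694500) had 0.71 (SE 0.26) with pR-Ea, the highest pR-Ea ratio of the 19, against 0.53, 0.25 and -0.36. Only 4 positions made up its 55 pPGK input reads. Cd247-6 (chr1:167719001-167719500) was the 1 bin of the 19 above input in every library, at 0.52 (SE 0.16), 0.79 (SE 0.31), 0.67 (SE 0.25) and 0.47 (SE 0.20), without reaching 2-fold. Cd247-5 (chr1:167710501-167711000) held the most SCP1 reads of the window, 2357 over 2038, and ranged from -0.14 with SCP1 to 0.55 with pR-Ea and in pPGK_PMA_I. Cd247-7 (chr1:167774501-167775000) and Cd247-8 (chr1:167775501-167776000) lay between -0.23 and 0.35.

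The Lck window held the lowest and the highest SCP1 ratio of the 19 bins. Lck-3 (chr4:129233501-129234000) held 307 over 218 reads with pR-Ea, 390 and 257 over 216 in pPGK_PMA_I and pPGK, and 346 over 675 with SCP1. It was below input in all 4 libraries, at log2 -0.95 (SE 0.25), -0.53 (SE 0.19), -1.02 (SE 0.23) and -1.31 (SE 0.28), and was called with pPGK and SCP1. The pPGK call sat at the limit and was lost without the position that held most reads in each library, at -0.89, and with no score limit, at -0.84. With pPGK the plus strand gave -1.48 and the minus strand -0.06.

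The adjoining bin Lck-4 (chr4:129234001-129234500) was low with SCP1 alone, with 336 over 134 reads with pR-Ea, 309 and 290 over 123 in pPGK_PMA_I and pPGK, and 62 over 157 with SCP1. Its log2 ratio was -1.67 (SE 0.56) with SCP1, the lowest SCP1 value of the 19, and between -0.12 and -0.03 in the other libraries. The SCP1 count rested on 21 reporter positions. The SCP1 ratio was -1.29 on the plus strand, from 26 over 52 reads. On the minus strand it was -0.71, short of 2-fold, from 28 over 37. Positions listed on both strands were left out of this split. By distinct positions the SCP1 ratio was -0.26.

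Lck-5 (chr4:129235501-129236000) had the highest ratio of the 19 with pPGK and with SCP1. It held 422 over 176 reads with pR-Ea, 974 and 965 over 193 in pPGK_PMA_I and pPGK, and 1101 over 450 with SCP1. The log2 ratios were -0.18 (SE 0.16), 0.95 (SE 0.13), 1.05 (SE 0.27) and 0.94 (SE 0.25), at percentiles 38.9, 91.1, 96.8 and 95.7 of all bins. Only the pPGK value passed 2-fold, and setting the median of all bins to 0 exchanged that call for one with SCP1, at 0.98 and 1.09. Both strands were above input in the pPGK_PMA_I, pPGK and SCP1 libraries, at 0.92 and 1.01, 1.36 and 0.55, and 1.09 and 1.01 for plus and minus, while pR-Ea had -0.17 and -0.51. Counted by distinct positions, the pPGK ratio was -0.011, with 24 reporter positions over 15 in the input.

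Lck-7 (chr4:129252001-129252500) held 411 over 121 reads with pR-Ea, 896 and 582 over 157 in pPGK_PMA_I and pPGK, and 547 over 617 with SCP1. It was called higher in pPGK_PMA_I, at 1.12 (SE 0.15), and had 0.32 (SE 0.26) with pR-Ea, 0.62 (SE 0.28) with pPGK and -0.52 (SE 0.36) with SCP1. The call was lost when the score limit was asked of each file alone, at 0.98, and on the plus strand, at 0.48. The other Lck bins were called in no library. Lck-1 (chr4:129219501-129220000) lay below input throughout, from -0.73 (SE 0.15) with SCP1 to -0.48 (SE 0.09) with pR-Ea. Lck-2 (chr4:129220001-129220500), Lck-6 (chr4:129250501-129251000) and Lck-8 (chr4:129262001-129262500) ranged from -0.34 to 0.33. Lck-6 had the most reads of these loci in both pPGK libraries, 2201 and 1978 over 724.

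The Zap70 window gave a single bin, Zap70-1 (chr1:36823501-36824000), with few reads. It held 202 over 92 reads with pR-Ea, 268 and 111 over 57 in pPGK_PMA_I and pPGK, and 380 over 297 with SCP1. The log2 ratios were -0.31 (SE 0.30), 0.84 (SE 0.71), -0.31 (SE 0.95) and 0.01 (SE 0.27), none of them called. In pPGK the reporter reads came from 10 positions, of which 1 held 69.4%.

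The comparison of pPGK_PMA_I with pPGK asks how output from 1 promoter differed in the stimulated library. The 2 libraries share an input, so the ratio of reporter reads is also the ratio of activities. Zap70-1 was the 1 bin of the 19 called higher and 0 were called lower, against 0.769% and 0.398% of 29899 bins (1.17% either way). The median log2 ratio was 0.11 over the 19 bins and 0.05 over all bins, and 11 of the 19 lay above the median of all bins. Apart from Zap70-1 the bins ranged from -0.57 to 0.54.

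Zap70-1 had 268 reporter reads in pPGK_PMA_I, against 111 in pPGK, a log2 ratio of 1.15 (95% interval 0.83 to 1.49, SE 0.24), or 2.22-fold, at percentile 99.5 of all bins. The reads lay on 12 positions in pPGK_PMA_I and 10 in pPGK, and the position with most reads held 56.0% and 69.4% of them. With each library's own top position left out, the ratio was 1.70. It was under 2-fold on the plus strand, at 0.92 from 212 reads in pPGK_PMA_I and 100 in pPGK; the minus strand held 2 and 1, and positions listed on both strands were left out of this split. By distinct positions it was 0.46. With every listed line counted, or at 100 reads per input, the bin missed the input minimum.

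**Figure D3:**
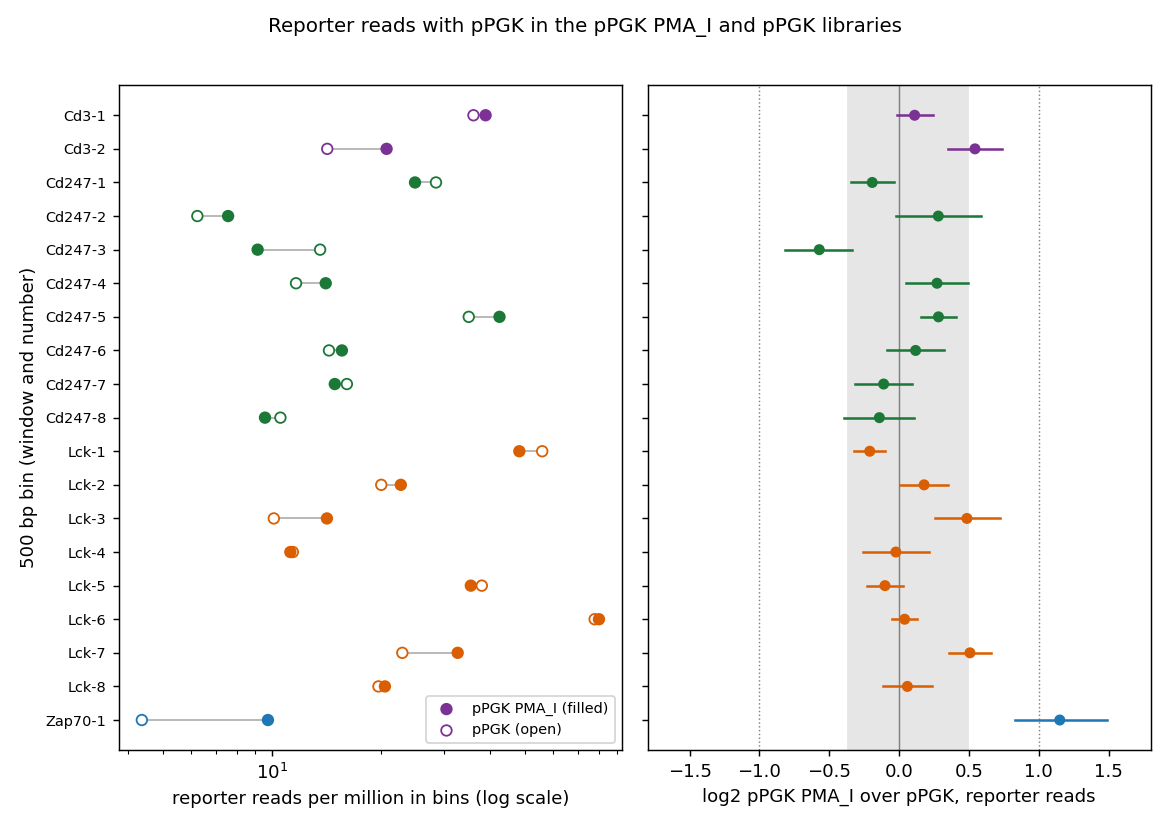
Left, reporter RPM in kept bins (log scale) in pPGK_PMA_I (filled) and pPGK (open) for each bin; right, the log2 ratio of pPGK_PMA_I to pPGK with its exact 95% counting interval, the gray band holding the middle 80% of all bins and dotted lines at -1 and 1. Zap70-1 is the only bin beyond the dotted lines.

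The next bins in order were Cd3-2 at 0.54 (95% interval 0.35 to 0.74, SE 0.24), Lck-7 at 0.51 (0.36 to 0.66, SE 0.27) and Lck-3 at 0.49 (0.26 to 0.72, SE 0.16). For Cd3-2 this was 570 reads in pPGK_PMA_I against 361 in pPGK, for Lck-7 896 against 582 and for Lck-3 390 against 257. They were at percentiles 92.2, 90.7 and 89.7 of all bins, and their intervals overlap, so their order is not resolved. At the other end Cd247-3 had 251 reads against 345, a log2 ratio of -0.57 (95% interval -0.81 to -0.33, SE 0.12), and asking the score limit of each file alone moved it to -0.09. Lck-5, the most active bin with pPGK, had 974 against 965 reads and a ratio of -0.10 (SE 0.27). Lck-6, the deepest bin, had 0.04 (SE 0.09), with an interval of -0.05 to 0.13.

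Differences between promoters were taken on activity, since the plasmid inputs differ, and called when at least 1 in size with a 95% interval over positions that excludes 0. For pR-Ea against pPGK 1 bin was higher and 1 lower, against 5.36% and 6.44% of 29978 bins (11.8% either way). For pR-Ea against SCP1 2 were higher and 1 lower, against 9.32% and 5.48% of 29972 (14.8% either way). For pPGK against SCP1 2 were higher and 0 lower, against 8.14% and 2.64% of 29958 (10.8% either way). Over all bins the medians of these differences were -0.08, 0.14 and 0.17, and over the 19 bins 0.0025, 0.25 and 0.25.

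Lck-5 was the 1 bin called lower in any of the 3 promoter comparisons. It was lower with pR-Ea than with pPGK by a log2 difference of -1.23 (SE 0.32, 95% interval -1.86 to -0.61) and than with SCP1 by -1.13 (SE 0.30, -1.71 to -0.55), while pPGK and SCP1 differed by 0.10 (SE 0.37). By distinct positions the Lck-5 differences of pR-Ea from pPGK and from SCP1 were 0.26 and -0.24. Its neighbour Lck-4 was higher with pR-Ea than with SCP1 by 1.55 (SE 0.59) and with pPGK than with SCP1 by 1.63 (SE 0.75). The interval of the pPGK difference was wide, 0.16 to 3.11. By distinct positions the pR-Ea and pPGK differences from SCP1 at Lck-4 were 0.07 and 0.47. Lck-7 was higher with pPGK than with SCP1 by 1.14 (SE 0.46), or by 0.71 in distinct positions. In the Cd247 window, Cd247-2 was higher with pR-Ea than with SCP1 by 1.08 (SE 0.36), and Cd247-4 higher with pR-Ea than with pPGK by 1.22 (SE 0.38). In distinct positions these Cd247-2 and Cd247-4 differences were 0.50 and 0.44. Setting the medians of all bins to 0 ended 3 of these 7 calls: pPGK against SCP1 at Lck-4 (1.41, with an interval that holds 0) and Lck-7 (0.91), and pR-Ea against SCP1 at Cd247-2 (0.94).

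**Figure D4:**
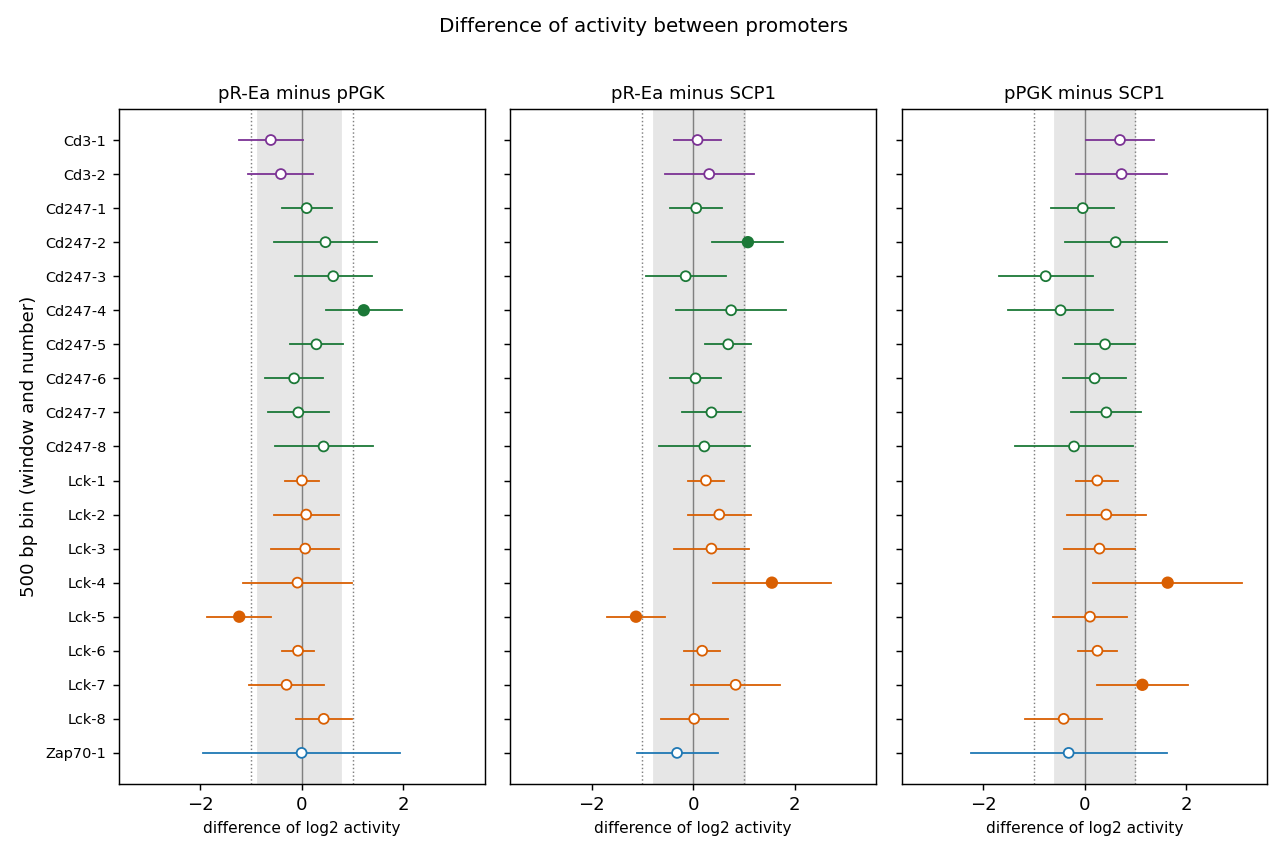
Difference of log2 activity between promoters (x axis) for each bin (rows), with bars of 95% intervals over positions; filled points were called, the gray band holds the middle 80% of all bins and dotted lines mark -1 and 1. Lck-5 lies left of -1 in both panels with pR-Ea.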

How the data were processed

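Reporter and plasmid input were measured in P5424 cells, 1 library per group in 7 groups. Alignment was to mm9, and the tools named are Bowtie2, SAMtools and bedtools 2.28.0, per the submitters' processing notes. For settings and step order: not given in the sources used here. All 4 deposited files hold whole-number counts in columns 7 and 8 and a mapping quality score in column 5, without a header. Column 7 was read as reporter and column 8 as input. No label states this; column 8 was equal at all 5258758 positions shared by both pPGK files.

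Fragments are 315 bp. A position listed on both strands carries the same counts on both lines and was counted once, at the 5' end. The deposited score differed between files: 64.1% of pPGK and 98.9% of pPGK_PMA_I reporter reads had at least 30, and the SCP1 and pR-Ea files held none lower. A position was therefore left out where any file listed it below 30. Reads used were 49273627 (pR-Ea), 55576187 (pPGK_PMA_I), 46088485 (pPGK) and 52694167 (SCP1) for reporters, and 18082304, 16822639 and 43388180 for the pR-Ea, pPGK and SCP1 inputs.

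Log2 ratios used a pseudocount of 1. Calls also needed 50 reads in both counts together, and intervals are Clopper-Pearson. In each window the bins highest and lowest with each promoter or in pPGK_PMA_I over pPGK were named, with every bin called in pPGK_PMA_I over pPGK or the same way with all 3 promoters; others described were chosen after their values were seen. The windows and bins were chosen with earlier results of these data known. The scripts (Python 3.11.15, numpy 2.4.6, scipy 1.17.1, pandas 2.3.3) were tested on simulated data. Alternatives varied the score limit, line counting, grid, pseudocount, scaling, input minimum, positions, interval and strand.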

Additional observations from a re-analysis of the deposited data

Results flagged for a closer look

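Reporter reads also fell in the 4 windows outside the 19 kept bins, where no comparison was made. They were 37.8% of the window reads with pR-Ea, 43.4% in pPGK_PMA_I, 39.1% with pPGK and 31.5% with SCP1. The share of plasmid reads outside the kept bins was 36.7% in the pR-Ea input, 30.8% in the pPGK input and 27.9% in the SCP1 input. Each reporter share was above that of its input, and the difference has no replicate check.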

How the results depend on the processing

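No paired analysis was possible because each group has 1 library, and no replicate could be left out. Counts of called bins, either way, are compared here with 1 (pR-Ea), 4 (pPGK_PMA_I), 4 (pPGK), 3 (SCP1), 1 (pPGK_PMA_I over pPGK), 2 (pR-Ea against pPGK), 3 (pR-Ea against SCP1) and 2 (pPGK against SCP1). A pseudocount of 0.5 and leaving out each library's position with most reads kept all 8 counts within 1.5 times. So did an interval over positions for the 5 ratios of counts. That interval is already used between promoters. With distinct positions all 8 counts were 0, where 0.145% to 5.62% of the bins tested were called. For the 5 ratios of counts, bins with under 50 positions could not be called at this setting. Shares in brackets below are of all bins tested at the same setting. At 10 reads per input, with 50 bins, there were 12 calls in pPGK_PMA_I (23.3%) and 7 with pPGK (16.3%). The 7 were 4 higher and 3 lower, so the balance turned, as it did over all bins (5740 higher and 5370 lower). There were also 10 with SCP1 (22%), 2 for pPGK_PMA_I over pPGK (3.72%) and 6 for pR-Ea against pPGK (15.4%). For pR-Ea against SCP1 there were 10 (16.9%) and for pPGK against SCP1 9 (15.6%). At 100 reads, with 13 bins, there were 1 in pPGK_PMA_I (15.2%) and 1 with pPGK (13%). The 1 with pPGK was higher, so the balance turned, while over all bins lower calls stayed more frequent (620 higher and 1916 lower). There were 0 for pPGK_PMA_I over pPGK (0.818%) and 1 for pR-Ea against pPGK (10.1%). With no score limit there were 10 in pPGK_PMA_I (36.4% of all bins, against 16.8%) and 2 for pPGK_PMA_I over pPGK (9.83% of all bins, against 1.17%). The same setting gave 4 for pR-Ea against pPGK and 4 for pPGK against SCP1 (13% and 12.8% of all bins, against 11.8% and 10.8%). With the limit asked of each file alone there was 1 in pPGK_PMA_I (17.2%). Counting every listed line gave 0 for pPGK_PMA_I over pPGK (1.35%). A grid shifted by 250 bp gave 2 with pR-Ea (8.89%), 5 with SCP1 (18.2%) and 0 for pPGK_PMA_I over pPGK (1.14%). Medians set to 0 gave 0 with pR-Ea (8.66%) and 0 for pPGK against SCP1 (9.24%). Strand alternatives were chosen after seeing the data. The plus strand gave 2 with pR-Ea (9.95%), 1 in pPGK_PMA_I (22.2%) and 2 with pPGK (20.2%). It also gave 5 with SCP1 (19.6%) and 0 for pPGK_PMA_I over pPGK (3%). The minus strand gave 2 with pPGK (21%), 5 with SCP1 (19.3%) and 0 for pPGK_PMA_I over pPGK (3.71%). Among single bins 4 called values changed sign: by distinct positions Lck-5 was -0.011 with pPGK and 0.26 for pR-Ea against pPGK, and on the plus strand Cd247-3 was 0.37 in pPGK_PMA_I and 0.91 with pPGK. Of the other values of single bins over the alternatives, 375 kept call and sign, 16 uncalled values changed sign without a call, 43 lost a call and 9 gained one. The cause was not tested, apart from the bins added or lost with the input minimum.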
